A study of Mus musculus with 6 samples.

Results

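The genes of polyamine metabolism were examined in the hearts of mice labelled as an inducible, cardiomyocyte-specific deletion of Immt, which encodes the inner membrane protein Mic60. The set was fixed by name as 10 genes, Odc1, Amd1, Srm, Sms, Sat1, Smox, Paox, Oaz1, Oaz2 and Azin1, and all 10 were found among the 27021 genes of the count table. The 3 Immtfl/fl-Myh6-MCM mice carried loxP-flanked Immt alleles, and the 3 Immt+/+-Myh6-MCM control mice carried unmodified Immt. Every mouse was labelled as carrying the Myh6-MerCreMer transgene, a tamoxifen-activated Cre driven by the Myh6 promoter of cardiomyocytes, so that the other cells of the heart keep Immt. Tamoxifen was given in 3 injections at 6 weeks of age to both groups, and RNA was taken from whole hearts 20 weeks later, with 1 library for each heart.

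Polyamines are small, positively charged molecules that bind RNA, DNA and ion channels and are needed for growth and translation. Ornithine decarboxylase makes putrescine, and spermidine synthase and spermine synthase then add aminopropyl groups that are supplied by S-adenosylmethionine decarboxylase. The acetyltransferase SAT1 and the oxidases SMOX and PAOX run the pathway backwards, while antizymes bind ornithine decarboxylase and send it to the proteasome, and the antizyme inhibitor releases it. Much of this control acts on translation and protein stability, which read counts do not measure.

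The libraries held 49793058 to 53251529 counts in Immtfl/fl-Myh6-MCM hearts and 42301627 to 44151674 counts in control hearts. Immt had 23.0, 28.7 and 39.2 CPM (counts divided by library size, with TMM factors for library composition) in Immtfl/fl-Myh6-MCM hearts, against 663, 453 and 524 CPM in control hearts, as the labels state. Esr1, whose ligand-binding domain is part of MerCreMer, had 71 to 323 counts in Immtfl/fl-Myh6-MCM hearts and 144479 to 165400 counts in control hearts, although all hearts are labelled with the transgene. The libraries labelled Immtfl/fl-Myh6-MCM thus go against their label for the transgene, though not for Immt, so that the Cre line and the time at which Immt was lost are in doubt. A difference in the transgene and the deletion of Immt cannot be told apart in these groups. Xist was counted at 20811 in Immtfl/fl-Myh6-MCM replicate 3 and 11605 in control replicate 3, and at 16 or less in the other hearts. Of 8 cardiomyocyte markers, 5 fell, with a summed level of 28540 to 41461 CPM in Immtfl/fl-Myh6-MCM hearts and 67561 to 72217 CPM in control hearts. Fewer cells of a type and less RNA per cell cannot be told apart in whole hearts. Of 8 macrophage markers 1 rose, with overlapping summed levels of 213 to 533 CPM in Immtfl/fl-Myh6-MCM hearts and 208 to 262 CPM in control hearts. Of the other marker lists, fibroblast had 1 of 8 higher, smooth muscle had 1 of 6 higher and 1 lower, and other leukocytes had 2 of 4 higher. Endothelial had none of 8 called, but 3 were lower by the adjusted p alone. The summed endothelial level was 720 to 948 CPM in Immtfl/fl-Myh6-MCM hearts and 1059 to 1162 CPM in control hearts. The part of any of these marker shifts in the results was not tested. No marker was at 0 in all hearts.

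The sequences before Odc1 and Sat1, which rose, and Amd1, which fell, are shown. RefSeq promoter windows (GRCm38.p6) matched 8 of the 10 genes, all but Srm, which also rose, and Azin1, with 10 windows in all, and the 250 bases before each start were searched on both strands. Capitals mark the GC box GGGCGG and the TATA box letters TATAA, each on either strand, and matches on the 2 strands can overlap. The Odc1 stretch lies at chr12:17544623-17544793 on the plus strand and stops where the gene model of the count table begins. The Amd1 stretch lies at chr10:40302189-40302438 on the minus strand, and the Sat1 stretch at chrX:155216450-155216699 on the minus strand.
Odc1: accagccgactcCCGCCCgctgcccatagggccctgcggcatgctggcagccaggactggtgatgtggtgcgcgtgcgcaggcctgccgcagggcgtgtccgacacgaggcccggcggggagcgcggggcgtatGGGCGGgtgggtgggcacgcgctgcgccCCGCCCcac
Sat1: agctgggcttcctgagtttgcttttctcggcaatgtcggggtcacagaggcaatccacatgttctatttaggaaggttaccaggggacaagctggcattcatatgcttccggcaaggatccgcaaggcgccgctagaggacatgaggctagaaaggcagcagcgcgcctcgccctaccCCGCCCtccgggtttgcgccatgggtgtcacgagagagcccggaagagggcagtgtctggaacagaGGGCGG
Amd1: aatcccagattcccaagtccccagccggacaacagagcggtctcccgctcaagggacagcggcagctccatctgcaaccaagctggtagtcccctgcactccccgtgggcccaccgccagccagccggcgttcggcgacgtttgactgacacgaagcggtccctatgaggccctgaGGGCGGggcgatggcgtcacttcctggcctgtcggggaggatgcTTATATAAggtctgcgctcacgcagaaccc

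The GC box was found in 8 of the 10 windows of these genes, with Paox counted more than once, and in 32.7% of all 32851 windows. All windows were taken whatever the level of their gene in the heart, whereas the 10 genes were all expressed, so these shares are not like for like. TATAA was found in 1 of the 10, that of Amd1, and in 22.8% of all windows. The longer TATAAA was in none of the 10 and in 12.4% of all windows, and the shorter letters were settled on after these matches were seen. The E-box CACGTG, the letters that Myc and its partners bind, was in 1 of the 10, a window of Sms, and in 6.02% of all windows. TGATGNAA, the core of the element shared by Atf4 and C/EBP factors, was in none of the 10 and in 3.45% of all windows. These matches describe letters in a window, and a missing match says only that the letters are not there. Amd1 transcripts also carry a short upstream reading frame of 6 codons and a stop, through which polyamines are known to hold back translation of the enzyme. It lies in exon 1 of Amd1 at chr10:40302155-40302175 on the minus strand (GRCm38), in the 5′ untranslated region, with its start and stop codons in capitals.
Amd1 upstream reading frame: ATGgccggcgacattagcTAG

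Of the 10 genes, Odc1, Srm and Sat1 rose and Amd1 fell in Immtfl/fl-Myh6-MCM hearts, and 6 were not called. The call needed both an absolute log2 fold change (log2FC) over 1 and an adjusted p under 0.05 in edgeR's quasi-likelihood F test, with Benjamini-Hochberg adjustment over 17146 genes. Among all genes tested, 9.91% rose and 10.6% fell by the same rule, 20.5% in either direction. The median log2FC of the 10 genes was 0.07, and that of all genes was -0.001. Their median absolute log2FC was 0.545, and that of all genes was also 0.545. For 8 of the 10 genes no Immtfl/fl-Myh6-MCM heart fell within the control range or the reverse, which held for 52.8% of all genes tested.

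**Figure D1:**
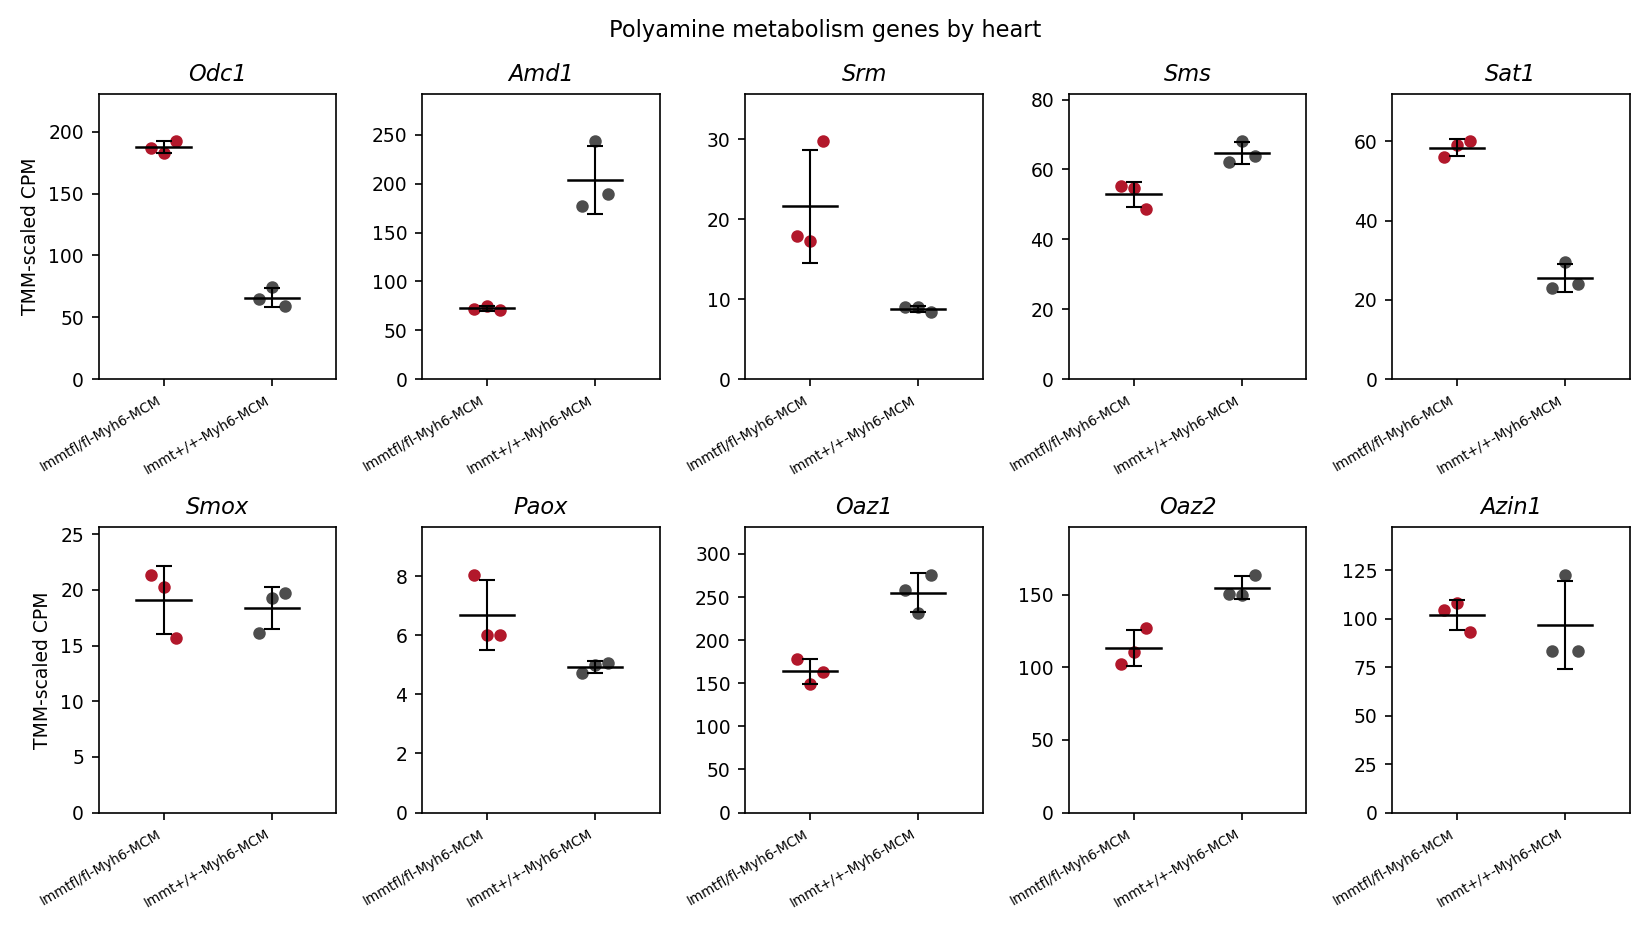
CPM of each of the 10 genes in the 3 Immtfl/fl-Myh6-MCM hearts (red, left) and the 3 control hearts (grey, right), 1 point for each heart, with the mean and SD as lines and every axis starting at 0. Odc1, Srm and Sat1 lie higher and Amd1 lower in all 3 Immtfl/fl-Myh6-MCM hearts, and Smox and Azin1 overlap between the groups.

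The genes of synthesis moved in opposite directions. Odc1, at chr12:17544794-17551505 on the plus strand (GRCm38), encodes ornithine decarboxylase, the first step of the pathway. It had 187, 183 and 192.5 CPM in Immtfl/fl-Myh6-MCM hearts, against 64.4, 74.5 and 58.9 CPM in control hearts. The lowest Immtfl/fl-Myh6-MCM heart was far above the highest control heart, and the log2FC was 1.51 ± 0.12 (SE, n = 3 each, edgeR adjusted p = 3.1e-05). Amd1, at chr10:40287458-40302186 on the minus strand, encodes S-adenosylmethionine decarboxylase, which makes the aminopropyl donor for both later synthases. It had 71.4, 75.1 and 70.8 CPM in Immtfl/fl-Myh6-MCM hearts, against 177, 244 and 189.9 CPM in control hearts. All 3 Immtfl/fl-Myh6-MCM hearts were close together and below every control heart, at 35.6% of the control mean (log2FC -1.49 ± 0.14, SE, n = 3 each, edgeR adjusted p = 6.7e-05).

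Srm, at chr4:148591503-148594993, encodes spermidine synthase. It had 17.9, 17.2 and 29.8 CPM in Immtfl/fl-Myh6-MCM hearts, against 9.05, 8.98 and 8.36 CPM in control hearts. The groups did not overlap, and replicate 3 of the Immtfl/fl-Myh6-MCM hearts stood above the other two. The log2FC was 1.30 ± 0.23 (SE, n = 3 each, edgeR adjusted p = 0.0020), and it was 1.00 without that heart, just past the fold threshold. The same heart had the highest Myc, at 55.5 CPM against 26.6 and 29.3 CPM in the other Immtfl/fl-Myh6-MCM hearts and 2.22 to 5.21 CPM in control hearts. It also had the highest Atf4 and Slc7a1 and was the Xist-expressing heart of its group. The part of any of these in the Srm values was not tested. Sms, at chrX:157443855-157492287, encodes spermine synthase and had 55.3, 54.6 and 48.7 CPM in Immtfl/fl-Myh6-MCM hearts, against 62.0, 68.1 and 63.9 CPM in control hearts. Its groups did not overlap, but the difference was small (log2FC -0.29 ± 0.11, SE, n = 3 each, edgeR adjusted p = 0.067). Among the alternatives it passed the adjusted p only with upper-quartile factors (0.021) and a stricter filter (0.049). The highest value was 0.16, in the DESeq2 Wald test. The pseudogene Sms-ps took 686 to 915 counts in Immtfl/fl-Myh6-MCM hearts and 654 to 800 in control hearts, beside 2684 to 3258 and 2317 to 2747 counts for Sms, so reads may be split between them.

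Of the 3 genes that break polyamines down, Sat1 alone was called. Sat1, at chrX:155213132-155216449 on the minus strand, encodes spermidine/spermine N1-acetyltransferase, which marks polyamines for oxidation or export. It had 56.1, 59.1 and 60.1 CPM in Immtfl/fl-Myh6-MCM hearts, against 23.0, 29.7 and 24.0 CPM in control hearts. No control heart came near the Immtfl/fl-Myh6-MCM hearts (log2FC 1.19 ± 0.13, SE, n = 3 each, edgeR adjusted p = 0.00016). Smox, at chr2:131491496-131525922, encodes spermine oxidase and had 21.4, 20.2 and 15.7 CPM in Immtfl/fl-Myh6-MCM hearts, against 16.2, 19.2 and 19.7 CPM in control hearts. These ranges overlapped and no difference was detected (log2FC 0.06 ± 0.17, SE, n = 3 each, edgeR adjusted p = 0.82). Paox, at chr7:140115799-140137224, encodes the peroxisomal oxidase of acetylated polyamines and had 8.06, 6.00 and 6.02 CPM in Immtfl/fl-Myh6-MCM hearts, against 4.71, 5.01 and 5.06 CPM in control hearts. Its groups did not overlap, and it did not pass the test (log2FC 0.44 ± 0.22, SE, n = 3 each, edgeR adjusted p = 0.14). Paox shares ground with Echs1 on the opposite strand, which held 10293 to 13103 counts, and whether the counting used strand is not known here.

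**Figure D2:**
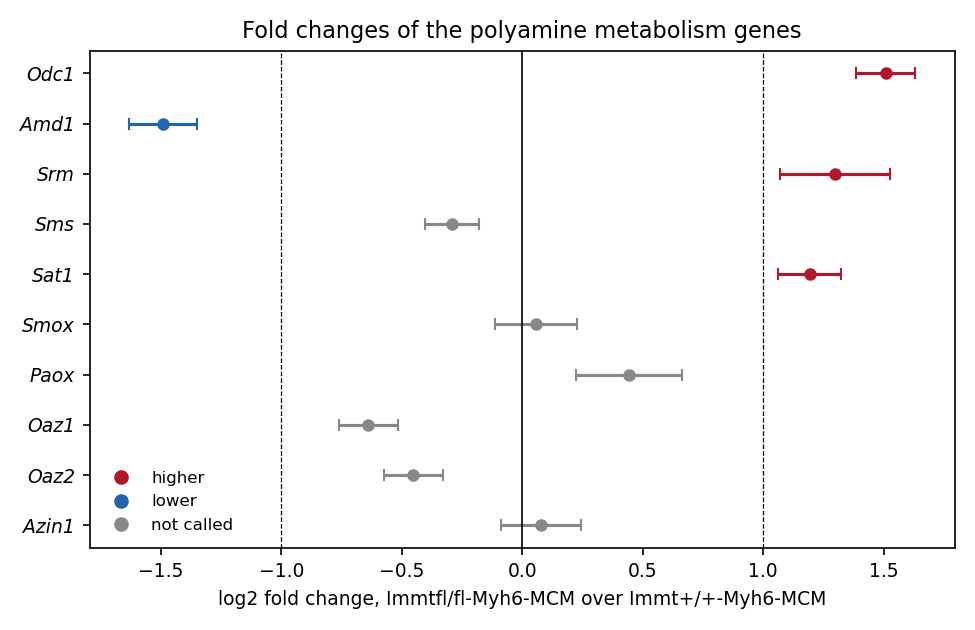
log2FC of Immtfl/fl-Myh6-MCM over control hearts for each gene (x axis), with bars of 1 SE and dashed lines at the fold threshold of 1 in each direction. Odc1, Srm and Sat1 lie past the line on the right and Amd1 past the line on the left, while the regulators Oaz1 and Oaz2 lie below 0 within the lines.

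The regulators of ornithine decarboxylase were not called, and 2 of the 3 passed the adjusted p alone. By the adjusted p alone, 3 of the 10 genes were higher and 3 lower, against 19.9% and 18.5% of all genes tested (38.4% in either direction). Oaz1, at chr10:80826656-80829290, encodes the main antizyme and had 178, 149.6 and 163 CPM in Immtfl/fl-Myh6-MCM hearts, against 258, 231 and 276 CPM in control hearts. Every Immtfl/fl-Myh6-MCM heart lay below every control heart (log2FC -0.64 ± 0.12, SE, n = 3 each, edgeR adjusted p = 0.0032). Oaz2, at chr9:65668001-65690300, encodes another antizyme and had 103, 110.3 and 127 CPM in Immtfl/fl-Myh6-MCM hearts, against 151, 150.2 and 164 CPM in control hearts. Its groups did not overlap either (log2FC -0.45 ± 0.12, SE, n = 3 each, edgeR adjusted p = 0.016), but the adjusted p was 0.068, 0.065 and 0.065 without Immtfl/fl-Myh6-MCM replicate 1, Immtfl/fl-Myh6-MCM replicate 2 and control replicate 3. Azin1, at chr15:38487427-38519266, encodes the antizyme inhibitor and had 104.5, 108 and 93.1 CPM in Immtfl/fl-Myh6-MCM hearts, against 83.3, 123 and 83.6 CPM in control hearts. The control hearts spanned the Immtfl/fl-Myh6-MCM range (log2FC 0.08 ± 0.17, SE, n = 3 each, edgeR adjusted p = 0.75).

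Ratios of read counts within a heart do not depend on library scaling. Odc1 reads were 1.05, 1.223 and 1.18 times those of Oaz1 in Immtfl/fl-Myh6-MCM hearts, against 0.250, 0.322 and 0.213 in control hearts. Against Oaz2 the ratio was 1.82, 1.66 and 1.51 in Immtfl/fl-Myh6-MCM hearts and 0.427, 0.496 and 0.359 in control hearts. Of the 9 ratios compared, that of Amd1 to Odc1 differed most between the groups. It was 0.382, 0.410 and 0.368 in Immtfl/fl-Myh6-MCM hearts and 2.76, 3.27 and 3.22 in control hearts. Control hearts thus held more Amd1 than Odc1 reads and Immtfl/fl-Myh6-MCM hearts the reverse. The ratio of Srm to Sms was 0.324, 0.316 and 0.612 in Immtfl/fl-Myh6-MCM hearts, against 0.146, 0.132 and 0.131 in control hearts. None of the 9 ratios overlapped between the groups, and each had a two-sided exact permutation p of 0.1 (adjusted p = 0.1 over the 9), the smallest that 3 hearts against 3 can give. The ratios printed here each set a gene higher without overlap against a gene lower without overlap. Their separation thus followed from the single genes and is not a further result. The share of ratios without overlap among other genes was not computed.

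**Figure D3:**
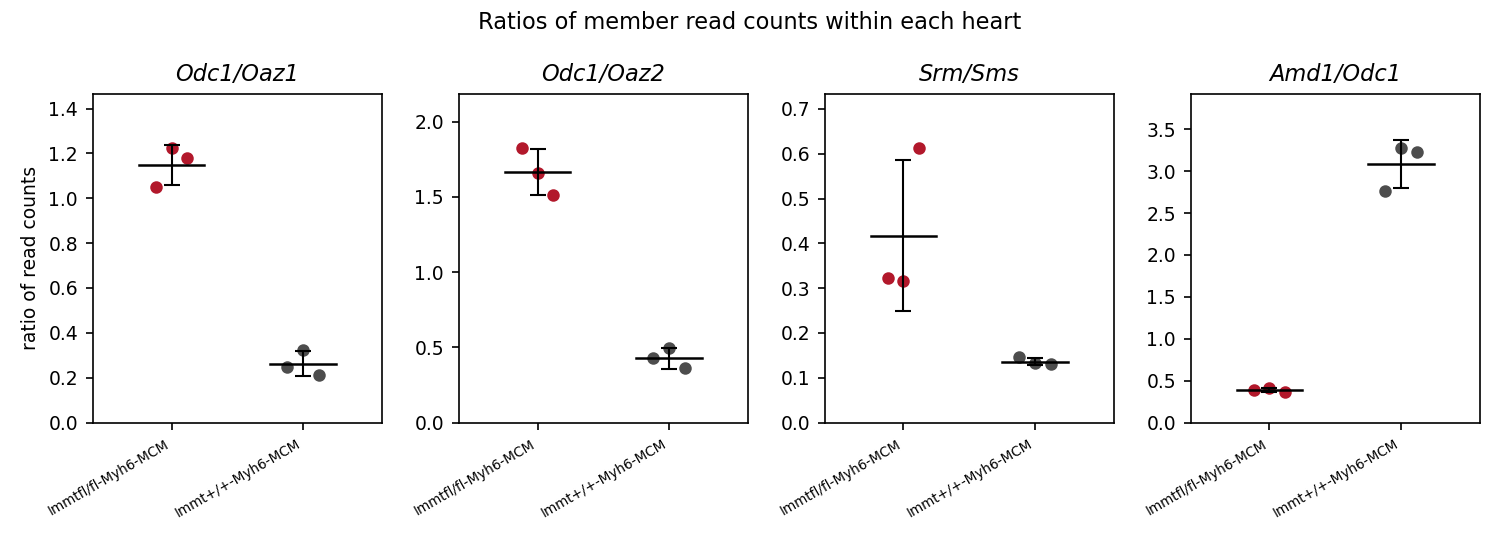
Ratio of the read counts of 2 genes within each heart (y axis, from 0) for 4 of the 9 ratios, with the 3 Immtfl/fl-Myh6-MCM hearts in red on the left, the 3 control hearts in grey on the right, and mean and SD as lines. The Odc1 to Oaz1 ratio is above 1 in all Immtfl/fl-Myh6-MCM hearts and at most 0.322 in control hearts.

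Levels of different genes were set side by side per gene length, in deposited FPKM. The libraries were primed from the poly-A tail and cut by tagmentation, and how far gene length fits such reads was not tested. In Immtfl/fl-Myh6-MCM hearts the order was Oaz1 (59.6 ± 4.7 FPKM, SD, n = 3), Odc1 (51.3 ± 1.5), Oaz2 (35.4 ± 4.2), Sat1 (19.6 ± 0.90), Amd1 (19.1 ± 0.69), Azin1 (15.2 ± 1.1), Srm (12.6 ± 4.2), Sms (8.20 ± 0.52), Smox (4.57 ± 0.69) and Paox (1.27 ± 0.21). Sat1 and Amd1 overlapped there, as did Azin1 and Srm. In control hearts the order was Oaz1 (92.4 ± 7.4 FPKM, SD, n = 3), Amd1 (53.4 ± 9.6), Oaz2 (48.1 ± 2.0), Odc1 (17.97 ± 2.3), Azin1 (14.3 ± 3.5), Sms (9.99 ± 0.54), Sat1 (8.55 ± 1.3), Srm (5.10 ± 0.26), Smox (4.37 ± 0.45) and Paox (0.931 ± 0.035). The neighbours that overlapped were Amd1 and Oaz2, Odc1 and Azin1, and Sms and Sat1. Oaz1 was the highest and Paox the lowest of the 10 in both groups.

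**Figure D4:**
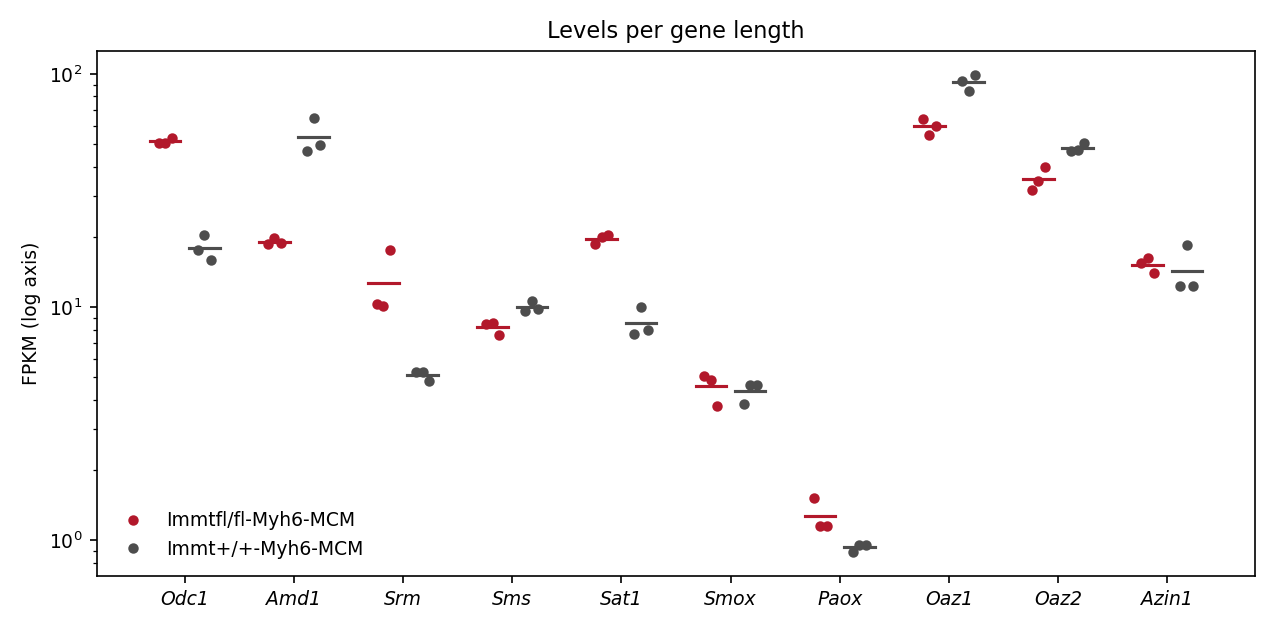
FPKM of each gene on a log axis, 1 point for each heart and a line at the mean, with Immtfl/fl-Myh6-MCM hearts (red) left of control hearts (grey). Odc1 stands next to Oaz1 at the top in Immtfl/fl-Myh6-MCM hearts, and below Oaz1, Amd1 and Oaz2 in control hearts.

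Neighbouring genes of the pathway were taken from lists of 41 names, of which 40 were in the count table and 32 were tested. Of these 32, 6 rose and 2 fell, beside the 9.91% and 10.6% of all genes tested. The median log2FC of the 32 was -0.19. Among 10 transporters, 7 were tested, 3 rose and 1 fell. Slc3a2, the heavy chain of amino acid exchangers, which is also linked to polyamine export, had 206, 205 and 215 CPM in Immtfl/fl-Myh6-MCM hearts, against 27.4, 51.8 and 29.9 CPM in control hearts (log2FC 2.52 ± 0.24, SE, n = 3 each, edgeR adjusted p = 9.1e-05). Atp13a3, a P-type ATPase linked to polyamine uptake, had 158, 174 and 172 CPM in Immtfl/fl-Myh6-MCM hearts, against 71.7, 85.8 and 70.2 CPM in control hearts (log2FC 1.148). Both genes were higher in every Immtfl/fl-Myh6-MCM heart than in any control heart. Slc12a8 was low in all hearts and rose by 2.68 on the log2 scale, to 1.31 to 4.58 CPM in Immtfl/fl-Myh6-MCM hearts, against 0.342 to 0.589 CPM in control hearts. Slc22a3, an organic cation transporter that also accepts polyamines, fell by 2.51 on the log2 scale, to 1.59, 1.23 and 1.76 CPM in Immtfl/fl-Myh6-MCM hearts, against 11.5, 7.07 and 7.60 CPM in control hearts. Slc18b1, a vesicular polyamine transporter, met the adjusted p alone (log2FC -0.65, edgeR adjusted p = 0.044). It no longer did with any heart left out (edgeR adjusted p from 0.055 to 0.12). Atp13a2, which releases polyamines from lysosomes, had a log2FC of -0.40 and did not pass the test (edgeR adjusted p = 0.13).

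Of 6 tested genes for arginine and ornithine supply, Slc7a1 alone was called. Slc7a1, the arginine transporter CAT1, had 191, 174 and 292 CPM in Immtfl/fl-Myh6-MCM hearts, against 56.9, 44.2 and 61.8 CPM in control hearts (log2FC 2.01 ± 0.22, SE, n = 3 each, edgeR adjusted p = 0.00019). Slc25a15, the mitochondrial ornithine carrier, met the adjusted p alone, in the other direction, with 11.8, 12.2 and 10.4 CPM in Immtfl/fl-Myh6-MCM hearts and 18.1, 19.02 and 17.3 CPM in control hearts (log2FC -0.66, edgeR adjusted p = 0.0077). Oat, ornithine aminotransferase, had a log2FC of -0.22 and did not pass. Arg2, the mitochondrial arginase, was too low to test, with 10, 3 and 8 counts in Immtfl/fl-Myh6-MCM hearts and 0 in each control heart. Oat overlaps Fgfr2 on the same strand, and Arg2 overlaps Vti1b on the opposite strand. None of 7 tested genes of S-adenosylmethionine supply and methylthioadenosine salvage was called. Adi1, an enzyme of the salvage, alone met the adjusted p, with 27.8, 27.6 and 30.4 CPM in Immtfl/fl-Myh6-MCM hearts and 40.2, 37.1 and 44.1 CPM in control hearts (log2FC -0.50, edgeR adjusted p = 0.011). Without control replicate 3, Adi1 no longer met it (edgeR adjusted p = 0.052). Mat2b and Apip did not pass (log2FC -0.28 and -0.24). Every Immtfl/fl-Myh6-MCM heart was below every control heart for both, but groups without overlap were found for 52.8% of all genes tested. Mat2a, which makes S-adenosylmethionine, had a log2FC of 0.39 (edgeR adjusted p = 0.21), and Mtap, which recovers methylthioadenosine, had 0.35 (edgeR adjusted p = 0.10), with groups that overlapped for both. Among the relatives of the 10 genes, none of 4 tested was called, with log2FC values of -0.85 for Amd2, 0.16 for Azin2 and 0.25 for Sat2.

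Spermidine is also the donor of hypusine, a modified lysine found in eIF5A. Of the 4 genes of this step, Eif5a2 rose, with 13.4, 11.8 and 16.7 CPM in Immtfl/fl-Myh6-MCM hearts and 4.44, 4.39 and 5.18 CPM in control hearts (log2FC 1.58 ± 0.20, SE, n = 3 each, edgeR adjusted p = 0.00036). Eif5a met the adjusted p and missed the fold threshold, with 358, 343 and 426 CPM in Immtfl/fl-Myh6-MCM hearts and 229, 222 and 236 CPM in control hearts (log2FC 0.71, edgeR adjusted p = 0.0018). The 2 enzymes, Dhps and Dohh, had log2FC values of 0.38 and 0.37 and did not pass, and Dhps overlaps Wdr83 on the opposite strand. Of 4 genes that can act on aldehydes or acetylated putrescine, Aldh1a1 rose (log2FC 1.38), Maob fell (log2FC -1.92), and Aldh9a1 and Aldh2 passed the adjusted p alone (log2FC -0.87 and -0.85).

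**Figure D5:**
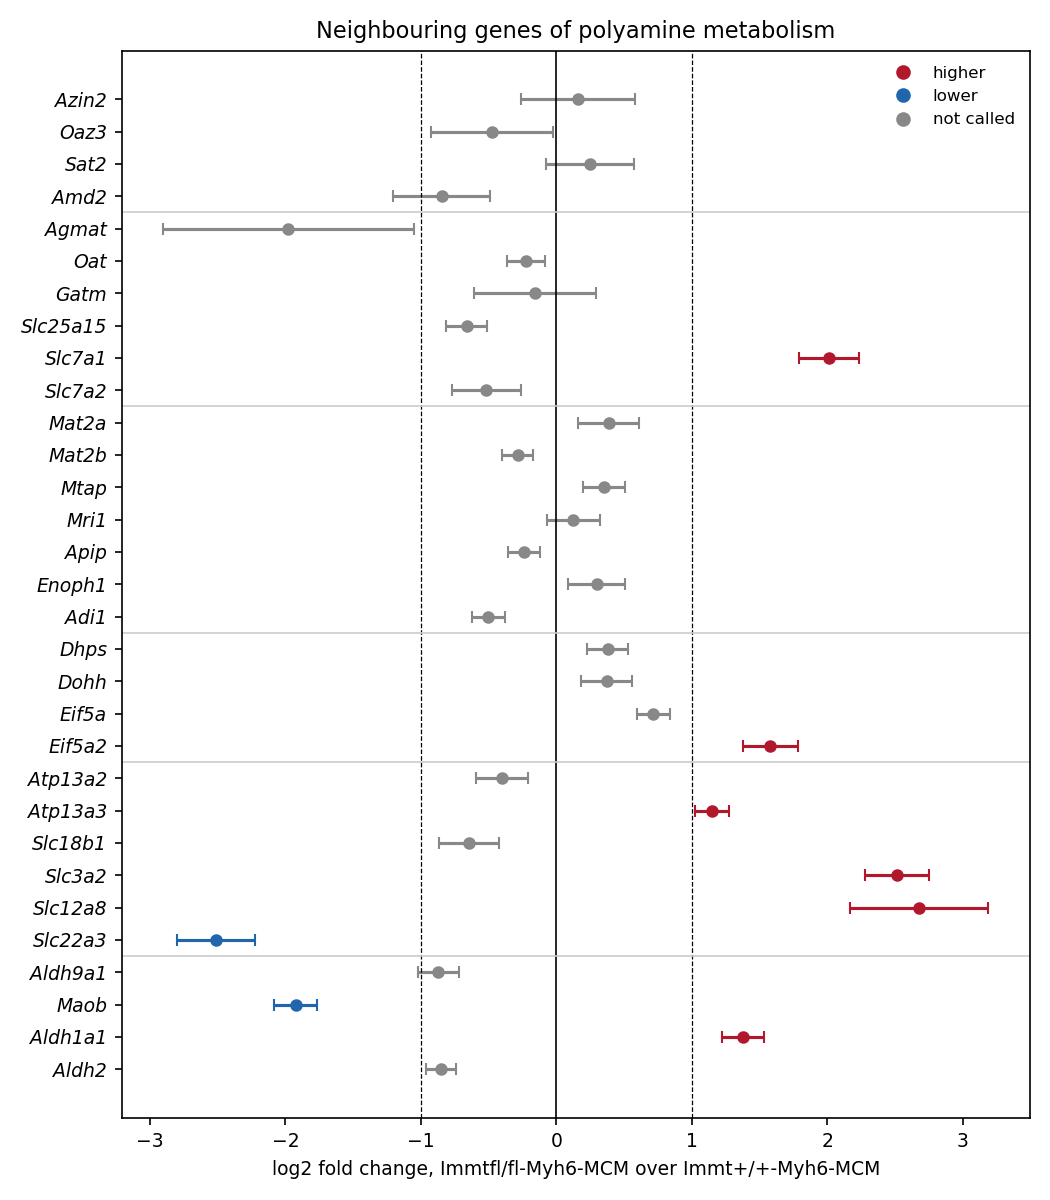
log2FC of Immtfl/fl-Myh6-MCM over control hearts (x axis) for the neighbouring genes tested and reported here, with bars of 1 SE, dashed lines at the fold threshold and grey lines between lists. The 6 genes that rose lie right of the dashed line at 1, and Slc22a3 and Maob, which fell, lie left of the dashed line at -1, as does Agmat (grey), which did not pass the test.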

How the data were processed

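RNA was sequenced from 3 Immtfl/fl-Myh6-MCM and 3 Immt+/+-Myh6-MCM hearts. The submitters' processing notes name edgeR 4.0.16, featureCounts, Subread 2.1.1, STAR 2.7.11 and SAMtools 1.22.1, and the builds GRCm38 and mm10. What each tool did, whether strand was used and how molecular identifiers were treated is not stated. The authors deposited raw counts per gene, the input of every test. The authors also deposited a signal, the counts divided by 1 size factor per library, which was not used. The deposited FPKM values of the authors, per kilobase of gene length, served only for levels between genes. The log2 fold changes deposited by the authors, from their own comparison of the groups, were not used, and neither were the deposited p-values.

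Of 27021 genes, 17146 passed filterByExpr (minimum count 10, minimum total 15). Counts were scaled by TMM and tested in R 4.3.3 with edgeR 4.0.16 (robust quasi-likelihood F test, Benjamini-Hochberg adjustment). A call needed an adjusted p under 0.05 and an absolute log2FC over 1, the thresholds of the study's volcano plot. SE is the absolute log2FC over the square root of F. The procedure was tested on simulated data, in which far fewer genes changed than were called here, equally in each direction. Such data cannot show how it performs on the present hearts. The labels number the hearts but name no animals, so p-values measure the spread between these samples. The genes and lists were chosen with earlier results of these data known. All 10 genes, Immt, Esr1, Myc, Atf4, 12 set neighbours and each called neighbour were to be named. Alternatives were RLE and upper-quartile factors, DESeq2 1.42.0, other filters, no fold threshold, each heart left out, a replicate block, an Xist term, mitochondrially encoded genes removed and, added after seeing the data, pseudogene copies merged. 1 neighbouring gene is counted in its list but not reported here by name. Adi1, Mat2b, Apip, Slc25a15, Slc18b1, Aldh9a1, Aldh2, Gatm, Mri1 and Agmat fall outside that naming rule and were chosen after their values were seen.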

Additional observations from a re-analysis of the deposited data

How the results depend on the processing

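The calls of the 10 genes stayed at 3 higher and 1 lower under every alternative with the fold threshold, including each heart left out (3 higher and 1 lower each time). With no fold threshold, 3 of the 10 were lower, the neighbouring genes had 7 higher and 7 lower, and all genes had 3418 higher and 3172 lower. Leaving out a heart gave 6 to 7 neighbouring genes higher and 2 to 3 lower, and 1535 to 1752 of all genes higher and 1494 to 1761 lower. Aldh9a1 was called lower without control replicate 3 (log2FC -1.003).

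Values near 0 changed sign. With upper-quartile factors, Smox was -0.046 and Azin1 -0.026 (log2FC). With each heart left out in turn, the log2FC of Smox ran from -0.030 to 0.19, that of Azin1 from -0.021 to 0.29, that of Azin2 from -0.092 to 0.49, that of Gatm from -0.58 to 0.22 and that of Mri1 from -0.024 to 0.23. The upper-quartile factors moved the median log2FC of all genes by -0.10. The cause of the sign changes was not tested.

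Same-numbered hearts did not deviate together (correlations -0.003, -0.060 and -0.052 over 16556 autosomal genes). Deviations from the means of 3 hearts cannot show whether the hearts were paired. The Xist-expressing heart was replicate 3 in both groups. With the replicate block, 3 of the 10 genes were higher and 1 lower, and all genes had 1574 higher and 1682 lower. Merging the copies changed no call among the 10 genes. With 3 hearts in each group, small differences such as that of Sms stay near the threshold.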

Other observations

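Atf4, a transcription factor of amino acid and mitochondrial stress, had 405, 473 and 626 CPM in Immtfl/fl-Myh6-MCM hearts, against 52.2, 59.3 and 50.4 CPM in control hearts (log2FC 3.22 ± 0.18, SE, n = 3 each, edgeR adjusted p = 4.3e-06). Aoc1, a diamine oxidase that can break down putrescine, was too low to test, with 26, 6 and 16 counts in Immtfl/fl-Myh6-MCM hearts and 0, 0 and 4 counts in control hearts, and it was chosen after its values were seen.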
